A study of Mus musculus with 26 samples.

Results

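The proteasome is the large protease that degrades ubiquitin-tagged proteins, and its constitutive subunits were described here in fetal cortical nuclei and in sorted microglia. The genes were taken by symbol alone, as every Psma, Psmb, Psmc or Psmd gene with a number plus Adrm1, without the 3 immunoproteasome subunits, pseudogenes and antisense genes. This gave 37 of the 30406 genes shared by all libraries. The core particle held 16 of them, 8 of the alpha ring and 8 of the beta ring. The regulatory cap held 18, comprising 6 base ATPases, 4 base non-ATPases and 8 lid subunits, and 3 genes (Psmd5, Psmd9 and Psmd10) encode chaperones that help to assemble the cap base.

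As background, the core particle is a barrel of stacked rings in which the outer alpha rings gate the entry and 3 beta subunits cut the protein chain. Psmb6 carries the caspase-like, Psmb7 the trypsin-like and Psmb5 the chymotrypsin-like activity. The cap recognizes ubiquitin through receptors such as Psmd4 and Adrm1, the lid enzyme Psmd14 removes the ubiquitin chain, and the ATPases Psmc1 to Psmc6 unfold the substrate and feed it into the barrel. The transcription factor Nfe2l1 (Nrf1) is known to raise subunit genes together when the protease is inhibited, through antioxidant response elements.

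The study asked how the fetal brain and its microglia respond to maternal immune activation (MIA). All dams received an intraperitoneal injection of saline or of Poly(I:C), a double-stranded RNA mimic of viral infection, at E12.5, and all mice were C57Bl/6N. Embryos were pooled for the embryonic sorts, and the labels give no litter, so p-values measure only the spread between these libraries. The nuclei came from few embryos of few dams, so litter and treatment cannot be told apart. Nuclei came from the E15 somatosensory cortex of male embryos that were wild type or Csf1r-null (lacking in every cell the receptor that microglia need to survive), after saline or MIA, with 2 libraries in each of the 4 groups. Microglia of wild-type mice, sorted as Cd11b-positive, Cx3cr1-positive and Cd45-low cells, came from E13 and E15 after saline or MIA (3 libraries in each of 4 groups) and from P14 after saline (4 libraries) or MIA (2 libraries). In both assays 3′ transcript ends were counted with unique molecular identifiers (UMIs), 1 tag per molecule, so that levels are given as CPM, a gene's UMIs scaled to the summed UMIs of its library, which do not scale with transcript length and can be set side by side between genes.

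After filtering, the nuclei libraries held 9123536 to 16413362 UMIs and the sorted libraries 5632466 to 95434658, of which E13 MIA replicates 1 and 2 had only 280 and 375 cells past the filters. Csf1r, the targeted gene, was counted at 23 and 11 UMIs in the wild-type saline libraries, 22 and 0 after MIA, 4 and 10 in the Csf1r-null saline libraries and 2 and 1 after MIA. The summed UMIs of 12 microglial marker genes were 473 and 275 in wild-type saline, 337 and 51 in wild-type MIA, 97 and 197 in Csf1r-null saline and 62 and 67 in Csf1r-null MIA. By both measures replicate 2 of the group labelled wild type MIA went against its label, as did replicate 2 of the group labelled Csf1r-null saline, and values without both libraries are given below. The library of wild-type saline replicate 1 held more interneuron marker RNA (0.0901% of UMIs against 0.0146% to 0.0214% in the other nuclei libraries). Of 153 pairs of sorted libraries, 21 shared at least 1% of the cell barcodes of the smaller library, up to 258 barcodes (68.8% of E13 MIA replicate 2, shared with the female library of P14 saline replicate 3). Of 67847 sorted cells past the filters, 60266 were kept as microglia, and clusters named as neurons held 4005 embryonic cells. In the cells kept, 12 microglial markers made up 2.31% to 6.95% of UMIs. The same markers entered the rule that removed other cell types, so this share is no check of the sort.

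Promoters of 30 of the 37 genes were matched by symbol in a RefSeq table on GRCm38.p6, each spanning 250 bases before to 50 bases after the start, and searched on both strands for 3 short motifs. The ETS motif CCGGAAG was present in 10 of the 15 matched cap promoters (66.7%), in 0 of the 12 core promoters and in 0 of the 3 chaperone promoters, against 9.12% of all 27025 promoters. The antioxidant response element TGACNNNGC was found in 6 of the 30 promoters (20%) against 3369 of all 27025 promoters, namely those of Psmb5, Psmb6, Adrm1, Psmc6, Psmd12 and Psmd9. The CCAAT box was found in 7 of 12 core promoters (58.3%) and 5 of 15 cap promoters (33.3%) against 37.9% of all. A match is a description of the letters and not a bound site. The element was in 2 of 12 core (16.7%) and 3 of 15 cap promoters (20%). At a share of 9.12% of all promoters, few of 12 would hold the ETS motif, so its absence is not read as a trait of the core. The core genes Psma8, Psmb1, Psmb2 and Psmb7 had no matched promoter. Shown are the 2 core promoters that hold the element and, as examples of the ETS motif, 2 of the cap promoters. Capitals mark the antioxidant response element in Psmb5 (chr14:54617946-54618245, minus strand, 47 bases before the start) and Psmb6 (chr11:70525107-70525406, plus strand, 9 bases before the start). In Psmc1 (chr12:100109952-100110251, plus strand) and Psmd11 (chr11:80428365-80428664, plus strand) they mark the ETS motif as its reverse complement, 28 and 11 bases before the start.
Psmb5 promoter: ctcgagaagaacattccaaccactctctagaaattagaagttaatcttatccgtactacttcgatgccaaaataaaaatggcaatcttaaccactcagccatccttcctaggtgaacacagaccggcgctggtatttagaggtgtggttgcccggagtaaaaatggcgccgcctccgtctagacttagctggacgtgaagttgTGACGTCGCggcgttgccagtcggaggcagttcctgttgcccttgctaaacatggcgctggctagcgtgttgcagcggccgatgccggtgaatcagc
Psmb6 promoter: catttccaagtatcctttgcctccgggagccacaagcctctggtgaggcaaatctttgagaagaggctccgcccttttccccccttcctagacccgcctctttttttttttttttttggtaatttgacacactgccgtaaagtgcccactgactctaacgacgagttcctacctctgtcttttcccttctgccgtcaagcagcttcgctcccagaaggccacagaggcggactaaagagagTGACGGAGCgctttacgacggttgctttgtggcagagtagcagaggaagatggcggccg
Psmc1 promoter: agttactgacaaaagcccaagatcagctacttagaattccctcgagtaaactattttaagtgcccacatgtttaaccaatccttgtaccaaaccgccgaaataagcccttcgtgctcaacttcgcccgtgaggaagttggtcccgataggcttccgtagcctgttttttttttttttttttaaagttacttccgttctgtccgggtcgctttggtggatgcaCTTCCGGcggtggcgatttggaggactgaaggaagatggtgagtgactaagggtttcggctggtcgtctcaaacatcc
Psmd11 promoter: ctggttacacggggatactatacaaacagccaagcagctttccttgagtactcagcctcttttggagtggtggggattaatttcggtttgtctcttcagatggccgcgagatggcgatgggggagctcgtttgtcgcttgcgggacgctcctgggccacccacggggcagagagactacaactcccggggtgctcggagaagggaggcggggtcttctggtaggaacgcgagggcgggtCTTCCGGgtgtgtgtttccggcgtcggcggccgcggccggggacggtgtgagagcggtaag

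Whether MIA changed the subunits in the fetal cortex was addressed first in wild-type nuclei. Summed over the 16 core genes, the level was 2762 and 3054 CPM in the wild-type saline libraries and 2090 and 2027 CPM in the wild-type MIA libraries. The Csf1r-null libraries were at 2196 and 2084 CPM after saline and 1838 and 2349 CPM after MIA. Both wild-type saline libraries thus lay above the other 6 libraries, whose ranges overlapped. The 18 cap genes summed to 2495 and 2460 CPM in wild-type saline, 2052 and 2073 CPM in wild-type MIA, 2015 and 2000 CPM in Csf1r-null saline and 1896 and 2150 CPM in Csf1r-null MIA. The same 2 libraries were highest for the cap, with a smaller distance to the rest. The chaperones were at 138 and 138, 129 and 134, 130 and 139, and 120 and 141 CPM in the same order of groups, with overlapping values between genotypes.

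**Figure D1:**
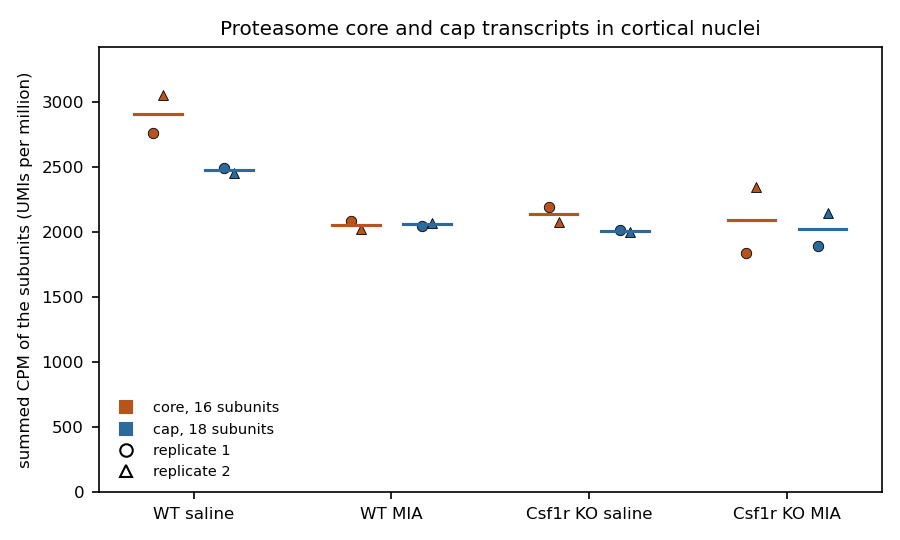
Summed level of the core and the cap subunits (CPM) in each of the 8 nuclei libraries by genotype and treatment, 1 point a library and a horizontal bar at each group's mean. The wild-type saline libraries, at 2762 and 3054 CPM for the core and 2495 and 2460 CPM for the cap, sit above the other 6 libraries.

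Of the 37 genes, 35 passed the filter on low counts in nuclei. Psma8, the testis-type alpha subunit, and Psmb11, the thymus-type beta subunit, did not, with at most 0.294 and 0.332 CPM in any nuclei library. In wild-type nuclei, where replicate 2 of MIA is the library that went against its label, 34 of the 35 genes had a log2 change below 0 after MIA, and 0 passed an adjusted p of 0.05 by edgeR's quasi-likelihood test with Benjamini-Hochberg adjustment (lowest adjusted p = 0.887), as did 0% of all 14379 genes tested. At an unadjusted p under 0.05, 19 of the 35 were lower, 12 of 14 core and 7 of 18 cap genes, against 4.12% of all genes. DESeq2, whose own filter left 16 of the genes with an adjusted p, gave 0 adjusted and 10 unadjusted calls. Its share of all genes called is not given. The median log2 change was -0.69 for the core, -0.37 for the cap and -0.43 for the 3 chaperones, beside 0.01 over all genes tested. In 29 of the 35 genes both MIA libraries lay below both saline libraries (13 core and 14 cap genes), against 13.8% of all genes. With the replicate number as a block the lowest adjusted p was 0.278 by edgeR. Psma6 alone was called when no filter on low counts was applied.

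Among the catalytic subunits, Psmb6 was at 238 and 256 CPM in wild-type saline, 158 and 149 CPM in wild-type MIA, 165 and 152 CPM in Csf1r-null saline and 140 and 187 CPM in Csf1r-null MIA. Its log2 change after MIA in wild type was -0.77 ± 0.21 (SE). Only the wild-type saline pair stood apart, since the other 6 values overlapped between groups. Psmb5 was at 180 and 224, 130 and 126, 151 and 132, and 104 and 158 CPM in the same order of groups, with a wild-type change of -0.74 ± 0.27. Psmb7 was at 122 and 113, 85.6 and 68.4, 84.0 and 66.0, and 79.0 and 85.3 CPM, with a change of -0.68 ± 0.17. None of the 3 passed the adjusted test, and in each the 2 wild-type MIA libraries lay under the 2 saline libraries.

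Within the alpha ring, whose members form the gate and the docking surface for the cap, the subunits varied widely. Psma6 had the lowest change of all members, -0.92 ± 0.25, with 157 and 180 CPM in wild-type saline and 98.5 and 90.7 CPM in wild-type MIA. Psma3, the most abundant member in nuclei, was at 389 and 416 CPM in wild-type saline and 353 and 412 CPM in wild-type MIA, so that its groups overlapped (change -0.15 ± 0.21). Psma1 changed by -0.28 ± 0.15, and Psma3 and Psma1 were the only tested core genes with an unadjusted p of 0.05 or more.

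In the cap all 18 genes were below 0. Of the 6 base ATPases the lowest were Psmc1 (-0.63 ± 0.23, 128 and 131 CPM in saline, 93.4 and 83.5 CPM in MIA) and Psmc3 (-0.54 ± 0.20). The ubiquitin receptor Psmd4 was at 232 and 247 CPM in saline and 206 and 217 CPM in MIA (-0.26 ± 0.19), and the receptor Adrm1 at 62.1 and 63.5 CPM against 52.1 and 52.8 CPM (-0.34 ± 0.18). In both receptors the MIA libraries lay under the saline libraries. The deubiquitinase Psmd14 had 121 and 128 CPM in saline and 107 and 100 CPM in MIA (-0.35 ± 0.16). Of the lid subunits, Psmd11, a scaffold of the lid horseshoe, overlapped between the groups with 175 and 134 CPM against 152 and 155 CPM (-0.07 ± 0.17), as did Psmd7, the partner of Psmd14 (-0.13 ± 0.18). The chaperone Psmd9 was the only gene with higher values in both MIA libraries (85.7 and 93.3 CPM against 82.8 and 82.0 CPM). The share of all genes in that direction was not counted.

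**Figure D2:**
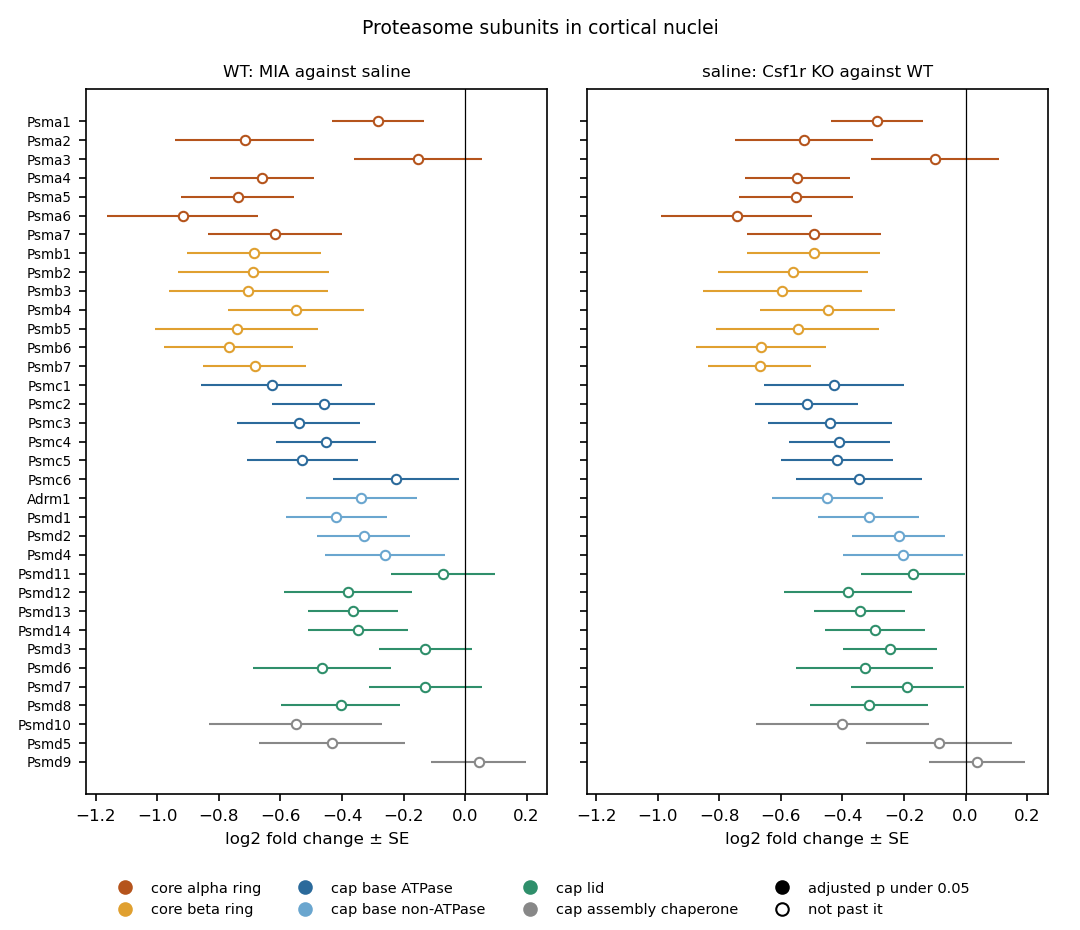
Log2 change of each tested subunit with its SE in wild-type nuclei after MIA (left) and in Csf1r-null against wild-type nuclei after saline (right), coloured by role, with open circles for genes that did not pass the adjusted test. On the left the values run from -0.92 (Psma6) to 0.04 (Psmd9) and on the right from -0.74 (Psma6) to 0.04 (Psmd9), and every circle is open.

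The log2 ratio of summed core to summed cap, which no scaling of a library can move, was 0.15 and 0.31 in wild-type saline, 0.03 and -0.03 in wild-type MIA, 0.12 and 0.06 in Csf1r-null saline and -0.04 and 0.13 in Csf1r-null MIA. The means of the wild-type groups differed by -0.23, with a spread between replicates of 0.0876. The ratios of wild-type saline and wild-type MIA did not overlap, whereas those of both Csf1r-null groups did. With 2 libraries a group, a permutation test of this ratio could not fall below 0.05, and no test was made.

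The size of the difference depended on the libraries. In replicate 1 alone the median core change after MIA was -0.46, and in replicate 2 alone it was -0.88. It was -0.63 without the 2 libraries that went against their labels, which leaves a single wild-type MIA library. With the block as well it was -0.43. Without wild-type saline replicate 2 it was -0.48, and without wild-type saline replicate 1 it was -0.85. The share of UMIs from ribosomal protein genes was 3.65% and 5.17% in wild-type saline and 4.02% and 3.68% in wild-type MIA, higher after MIA in replicate 1 and lower in replicate 2. With that share and the mitochondrial share as covariates the core median was -0.49. RNAs retained in the nucleus made up 11.97% and 15.1% of UMIs in wild-type saline and 13.3% and 16.8% in wild-type MIA, lower in saline within each replicate, and their part in the result was not tested. Haemoglobin RNA, a sign of red blood cells, was at 0.0543% and 0.0379% of UMIs in wild-type saline, 0.0328% and 0.0267% in wild-type MIA, 0.0198% and 0.0211% in Csf1r-null saline and 0.0363% and 0.0437% in Csf1r-null MIA. Its part in the result was not tested either. Within the clusters that could be named the core median was -0.66.

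Wild-type and Csf1r-null nuclei were compared after saline to ask what the loss of the receptor gene did by itself. Of the 35 genes 34 were lower in Csf1r-null nuclei in sign and 0 passed the adjusted test (lowest adjusted p = 0.844 by edgeR's quasi-likelihood test), against 0% of all genes, while 11 had an unadjusted p under 0.05 (6 core and 5 cap genes), against 4.1% of all genes. With DESeq2 these were 0 and 14 among the genes that its own filter left, and its share of all genes called is not given. The replicate block gave a lowest adjusted p of 0.246 by edgeR. In 31 of the 35 the Csf1r-null libraries lay under both wild-type libraries (13 core and 17 cap genes), against 18.6% of all genes. The median log2 change was -0.55 for the core and -0.34 for the cap. The core median was -0.34 without wild-type saline replicate 2 and -0.70 without wild-type saline replicate 1. This comparison and the MIA comparison share the wild-type saline libraries, which were the highest of all 8. RNAs retained in the nucleus made up 13.6% and 18.9% of UMIs in Csf1r-null saline, higher than in the same-numbered wild-type saline libraries (11.97% and 15.1%), and their part was not tested.

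Psma6 again had the lowest value (-0.74 ± 0.25), followed by Psmb7 (-0.67 ± 0.17), Psmb6 (-0.67 ± 0.21), and Psmb3 (-0.60 ± 0.26). Psmb5 was at -0.55 ± 0.27. In the cap the lowest were the ATPase Psmc2 (-0.52 ± 0.17), with 109 and 107 CPM in wild type and 78.7 and 74.1 CPM in Csf1r-null nuclei, and the receptor Adrm1 (-0.45 ± 0.18), with 62.1 and 63.5 CPM against 49.8 and 43.7 CPM. At the other end of the core and cap genes were Psma3 (-0.10 ± 0.21), Psmd11 (-0.17 ± 0.17), Psmd7 (-0.19 ± 0.18) and Psmd4 (-0.20 ± 0.19). Psmd14 lay between them at -0.30 ± 0.16. Without the 2 libraries that went against their labels, which leaves a single Csf1r-null saline library, the core median was -0.49.

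In Csf1r-null nuclei, with all libraries and no block, the subunits showed no difference between MIA and saline that passed either threshold. By edgeR's quasi-likelihood test 0 of 35 passed the adjusted and 0 the unadjusted threshold, against 0% and 0.285% of all genes, and DESeq2 gave 0 at both. The median change was -0.02 for the core and 0.03 for the cap, with 9 of 14 core and 6 of 18 cap genes below 0. Psmb6 changed by 0.06 ± 0.21, Psmb5 by -0.09 ± 0.26, Psmb7 by 0.14 ± 0.17 and Psmd14 by -0.04 ± 0.16. Replicate 2 of Csf1r-null saline is the library that went against its label. Without both such libraries, which leaves a single Csf1r-null saline library, the medians were -0.04 for the core and 0.06 for the cap. With the block as well the core median was -0.25. The replicates went opposite ways, with a core median of -0.29 in replicate 1 and 0.29 in replicate 2, so that the mean near 0 was not a property of each pair. After MIA, Csf1r-null and wild-type nuclei differed in 0 genes at both thresholds (0% and 0.362% of all genes), with medians of 0.12 for the core and 0.07 for the cap. Without the libraries that went against their labels the medians were 0.08 and 0.06, and with the block as well the core median was -0.11. The sign rested on single libraries, since the core median was -0.16 without Csf1r-null MIA replicate 2 and 0.40 without Csf1r-null MIA replicate 1, and the cap median -0.14 and 0.24.

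The difference between the 2 MIA responses was tested as the interaction of genotype and treatment. It passed the adjusted threshold in 0 of 35 genes (0% of all genes), and at an unadjusted p under 0.05 it was above 0 in 9 genes, 6 core and 3 cap (1.29% of all genes were higher at that threshold). DESeq2 gave 0 at both thresholds among the genes that its own filter left. The median interaction was 0.67 for the core and 0.40 for the cap, and its largest values were those of Psma6 (0.87 ± 0.35), Psmb6 (0.83 ± 0.30) and Psmb7 (0.83 ± 0.24). The smallest were those of Psmd9 (-0.08 ± 0.22), Psma3 (0.06 ± 0.30) and Psmd11 (0.09 ± 0.24). Both libraries that went against their labels enter this test. Without them wild-type MIA and Csf1r-null saline hold a single library each, and the medians were 0.59 for the core and 0.41 for the cap. With the block as well the core median was 0.10. With all libraries the core median was 0.11 in replicate 1 alone and 1.18 in replicate 2 alone, which holds both of those libraries. With the replicate block 0 genes had an adjusted p under 0.05.

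Clusters of nuclei were named from marker genes, and 8 types held enough nuclei for a test (33571 nuclei in named clusters of 41539 kept). In every one of the 8 types both wild-type saline libraries had a higher summed core level than both wild-type MIA libraries. The types were cut from the same libraries, which already differed as a whole, so they are not independent results. The share of all genes with this order in every type was not counted. In apical progenitors, the stem cells of the ventricular zone, the core was at 3127 to 3146 CPM after saline and 2243 to 2295 CPM after MIA. In callosal projection neurons it was at 2324 to 2536 CPM and 1766 to 1806 CPM, and in subcerebral projection neurons at 2343 to 2368 CPM and 1864 to 1934 CPM. The Csf1r-null groups overlapped each other in all 3 of these types.

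The median core change in wild type after MIA ranged from -0.39 in subcerebral projection neurons to -0.77 in migrating neurons, and the median cap change from -0.12 in intermediate progenitors to -0.47 in dividing cells. The core median lay below the cap median in each of the 8 types. Between Csf1r-null and wild-type nuclei after saline, core medians ran from -0.32 in subcerebral projection neurons to -0.76 in dividing cells. In Csf1r-null nuclei after MIA they ran from -0.08 to 0.10. Without the 2 libraries that went against their labels, core medians ran from -0.33 in subcerebral projection neurons to -0.78 in interneurons for MIA in wild type, and from -0.33 to -0.84 in the same types for the saline comparison.

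**Figure D3:**
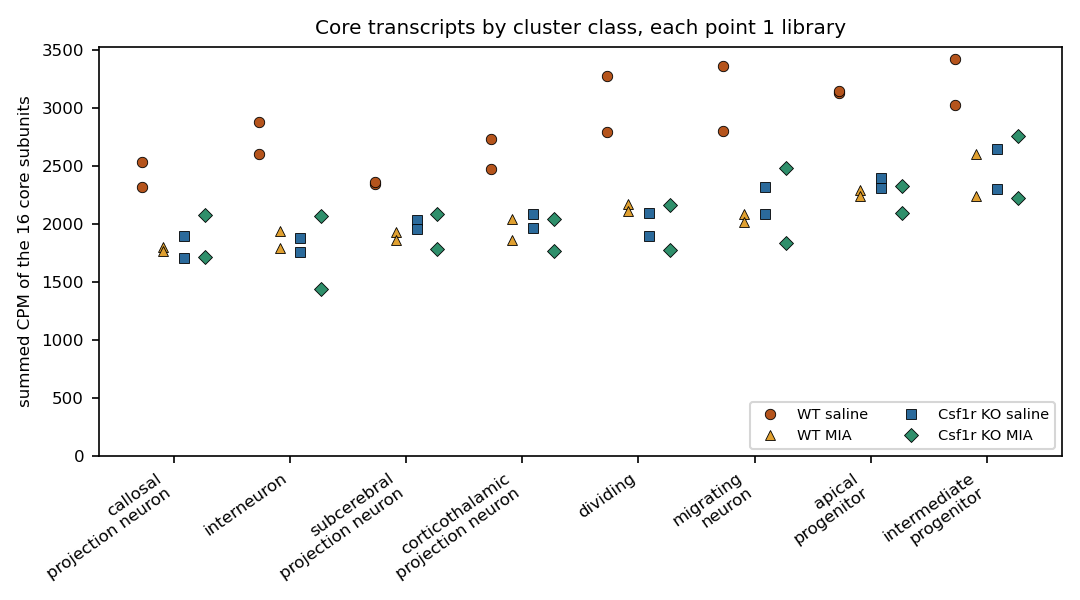
Summed level of the core subunits (CPM) per library in the 8 named cell types, by genotype and treatment, 1 point a library, with the libraries that went against their labels included. In all 8 types both wild-type saline libraries lie above both wild-type MIA libraries, for example at 3127 to 3146 CPM against 2243 to 2295 CPM in apical progenitors. The types come from the same libraries and are not independent.

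Within single types, 0 member genes passed the adjusted threshold of edgeR's quasi-likelihood test in either comparison, beside 0% of all genes in each type except dividing cells of the saline comparison, where 0.0107% were called lower. Calls appeared when the replicate number entered as a block, 24 over 4 types for MIA in wild type, of which 22 were core genes. In dividing cells there were 10 (Psma2, Psma5, Psma6, Psma7, Psmb1, Psmb3, Psmb4, Psmb5, Psmb6 and the lid gene Psmd6), against 2.31% of all genes. Apical progenitors had 5 (Psma5, Psma6, Psma7, Psmb2 and Psmb5), against 1.48%. Interneurons had 5 (Psma5, Psma6, Psmb1, Psmb6 and the ATPase Psmc1), against 1.52%. Migrating neurons had 4 (Psma4, Psmb3, Psmb6 and Psmb7), against 0.45%. The largest change was that of Psmb6 in interneurons, which fell by 1.19 ± 0.21 on the log2 scale (adjusted p = 0.00174 by edgeR with the block, adjusted p = 0.214 without it). For Csf1r-null against wild type after saline the block gave 11 calls, 8 in dividing cells (Psma2, Psma6, Psmb1, Psmb3, Psmb4, Psmb5, Psmb6 and Psmb7), against 2.41% of all genes, and 3 in interneurons (Psma5, Psma6 and Psma7), against 0.977%. All these calls come from fits that include the replicate 2 libraries that went against their labels. Without both, wild-type MIA and Csf1r-null saline hold a single library each, so that fit cannot show whether the calls rest on them.

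The levels themselves differed between the cell types, as a description over 8 libraries. Callosal projection neurons had the lowest core level (1980 ± 307 CPM, SD), next to interneurons (2047 ± 473), subcerebral (2048 ± 211) and corticothalamic projection neurons (2125 ± 323). Dividing cells (2287 ± 499), migrating neurons (2375 ± 503), apical progenitors (2494 ± 407) and intermediate progenitors (2654 ± 420) followed. Each step between neighbours in this order was smaller than the SD of either. That SD includes differences between groups and replicates that the types share, and types were not compared within libraries. The cap ran from 1962 ± 266 CPM in interneurons to 2441 ± 203 CPM in apical progenitors. Ribosomal protein genes took their lowest share in interneurons (2.93%) and their highest in intermediate progenitors (5.05%), which were also the core's highest type.

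Sorted microglia showed a larger range of subunit levels than nuclei did across their groups. The core summed to 3320, 3692 and 4107 CPM in E13 saline and 3481, 3422 and 4483 CPM in E13 MIA. At E15 it was at 3665, 2409 and 2516 CPM after saline and 3088, 2362 and 2255 CPM after MIA, and at P14 at 2016, 1951, 2009 and 1960 CPM after saline and 2058 and 2037 CPM after MIA. The P14 libraries were the lowest and lay within a narrow band, and both E15 replicate 1 libraries lay near the E13 values. The cap was at 2338 to 2719 CPM at E13, 1730 to 2301 CPM at E15 and 1813 to 1917 CPM at P14, so the E15 range took in that of P14.

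**Figure D4:**
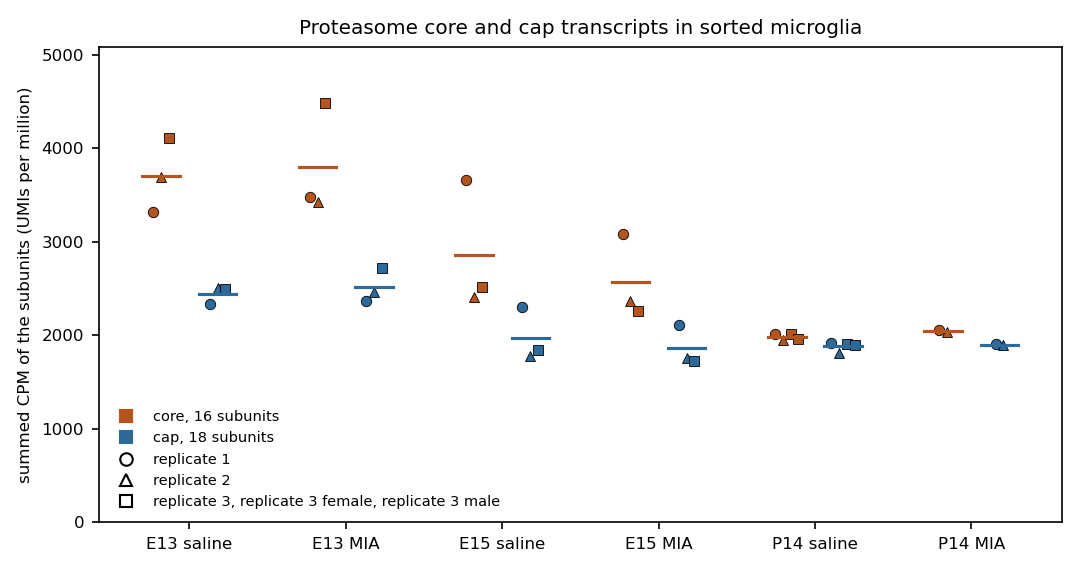
Summed level of the core and the cap subunits (CPM) in the 18 sorted microglia libraries by stage and treatment, 1 point a library and a horizontal bar at each group's mean. The core runs from 3320 to 4483 CPM at E13 to 1951 to 2058 CPM at P14, while the cap at P14 (1813 to 1917 CPM) lies inside the E15 range of 1730 to 2301 CPM.

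Of the 37 genes 36 passed the filter in sorted cells, and Psmb11 did not. Between E13 and E15, over saline and MIA libraries together, 22 of the 36 genes fell and 0 rose by edgeR's quasi-likelihood test with Benjamini-Hochberg adjustment, against 21.5% of all 13986 genes lower and 25% higher. DESeq2 also gave 22, and its share of all genes called is not given. The fall took in 8 of 15 core genes (6 of 8 alpha and 2 of 7 beta subunits), 13 of 18 cap genes (6 of 6 ATPases, 2 of 4 base non-ATPases and 5 of 8 lid subunits) and the chaperone Psmd5. Median log2 changes were -0.42 for the core and -0.36 for the cap, beside 0.04 over all genes. In 12 genes (4 core, 7 cap and the chaperone Psmd5) all 6 E15 libraries lay under all 6 E13 libraries, against 11.3% of all genes.

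Psmb7, the trypsin-like subunit, had the largest fall (-0.87 ± 0.11, adjusted p = 1.3e-05 by edgeR). It was at 160, 174 and 195 CPM in E13 saline, 159, 171 and 195 CPM in E13 MIA, 126, 82.4 and 94.4 CPM in E15 saline and 87.3, 85.0 and 91.7 CPM in E15 MIA. Every E15 library lay below every E13 library. The other catalytic subunits did not pass, with -0.39 ± 0.17 for Psmb5 (adjusted p = 0.078 by edgeR) and -0.37 ± 0.16 for Psmb6 (adjusted p = 0.068 by edgeR), but both passed with library totals alone (-0.43 and -0.41) and without both E15 replicate 1 libraries. Psmb5 was at 222, 275 and 296 CPM in E13 saline and 286, 171 and 169 CPM in E15 saline, so that E15 replicate 1 overlapped with E13.

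Among the alpha subunits Psma5 (-0.67 ± 0.12), Psma4 (-0.60 ± 0.10) and Psma6 (-0.59 ± 0.12) fell most. Of the cap, the ATPase Psmc1 fell by 0.73 ± 0.17, Psmc6 by 0.49 ± 0.08, the deubiquitinase Psmd14 by 0.61 ± 0.09, and the large base scaffolds Psmd2 and Psmd1 by 0.56 ± 0.08 and 0.36 ± 0.07 on the log2 scale. Psmd14 was at 119, 118 and 121 CPM in E13 saline, 108, 125 and 129 CPM in E13 MIA, 92.4, 68.5 and 74.3 CPM in E15 saline and 82.3, 69.0 and 73.5 CPM in E15 MIA, with no overlap between the stages. The members with the least change were Adrm1 (0.04 ± 0.19), Psmd4 (-0.06 ± 0.09), the chaperone Psmd10 (-0.07 ± 0.09), Psmd11 (-0.08 ± 0.11), Psmb1 (-0.10 ± 0.11), the lid gene Psmd8 (-0.12 ± 0.13) and Psma8 (-0.15 ± 0.17), and none of them passed. The sign of Adrm1 turned in 9 of the alternatives tried and is not read as a direction.

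The count depended on single libraries. The share of all genes called in these alternative fits is not given, so the counts are set only against each other. With saline libraries alone 10 genes were lower. Without both shallow E13 MIA libraries there were 27, and without both E15 replicate 1 libraries 30, with medians of -0.69 for the core and -0.53 for the cap. Leaving out single libraries gave 16 (without E13 MIA replicate 3) to 29 (without E15 MIA replicate 1). With each shared barcode kept once, the count was 22.

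Between E15 and P14, 25 of the 36 genes fell and 0 rose by edgeR's quasi-likelihood test with Benjamini-Hochberg adjustment, against 29.5% of all genes lower and 29.9% higher. Here the core and the cap differed. All 15 tested core genes fell (8 of 8 alpha and 7 of 7 beta subunits), whereas 10 of 18 cap genes did (2 of 6 ATPases, 2 of 4 base non-ATPases and 6 of 8 lid subunits) and 0 of 3 chaperones. Among the core genes Psma8 was low throughout, at a mean of 3.77 CPM at E15 and 3.11 CPM at P14. Median log2 changes were -0.65 for the core and -0.29 for the cap, beside 0.02 over all genes. In 11 genes (9 core and 2 cap) the P14 libraries all lay under the E15 libraries, against 13.7% of all genes. In 1 gene, the ATPase Psmc1, they all lay above (at least 73.9 CPM against at most 73.1 CPM). The share of all genes that lay above was not counted.

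These values depended on scaling. Ribosomal protein genes took 18.4% to 20.8% of UMIs at E15 and 9.22% to 9.73% at P14, and their part was not tested. When libraries were scaled by their totals alone, a setting chosen after seeing the data, the median of all genes was 0.25, the core median -0.41 and the cap median -0.05. The calls were then 16 lower (13 core genes and Psmc4, Psmd8 and Psmd14 of the cap) and 2 higher (the ATPases Psmc1, 0.44 ± 0.17, which rests on uneven libraries, and Psmc3, 0.19 ± 0.08), against 21.7% of all genes lower and 43.3% higher. The fall of 13 core genes thus held under both scalings, and that of 7 cap genes did not. RNAs retained in the nucleus made up 0.646% to 1.08% of UMIs at E13, 0.875% to 1.81% at E15 and 2.70% to 3.70% at P14, and mitochondrial genes 2.27% to 5.09%, 2.09% to 4.37% and 1.29% to 1.51%. The part of both in the stage differences was not tested.

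**Figure D5:**
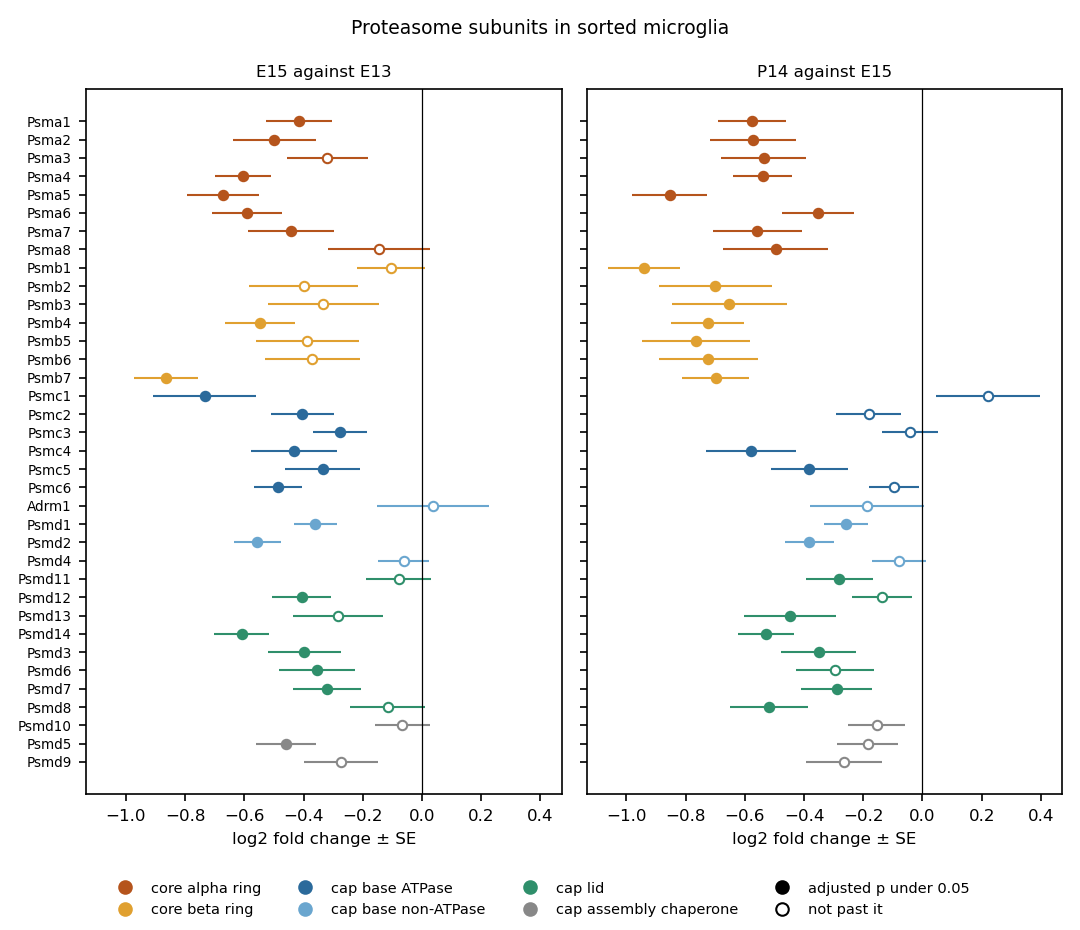
Log2 change of each tested subunit with its SE from E13 to E15 (left) and from E15 to P14 (right) in sorted microglia, coloured by role, with filled circles for an adjusted p under 0.05. From E15 to P14 all 15 core subunits lie below 0 (median -0.65) and the cap subunits run from -0.58 (Psmc4) to 0.22 (Psmc1).

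The ratio of core to cap, which is free of scaling, was 0.48 to 0.72 at E13, 0.38 to 0.67 at E15 and 0.05 to 0.11 at P14 on the log2 scale. The means of E15 and E13 differed by -0.10, within the spread between replicates of 0.116, and those of P14 and E15 differed by -0.40, with a spread of 0.0807. No P14 library overlapped with any embryonic library in this ratio.

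The beta ring had the lower median from E15 to P14, -0.72 against -0.55 in the alpha ring. Psmb1, a structural beta subunit, fell by 0.94 ± 0.12 (adjusted p = 4.5e-06 by edgeR), from 385, 272 and 320 CPM in E15 saline and 332, 287 and 283 CPM in E15 MIA to 189, 189, 192 and 189 CPM in P14 saline and 191 and 195 CPM in P14 MIA. It had not passed between E13 and E15, so its values split the embryonic from the P14 libraries. The catalytic subunits Psmb5 (-0.77 ± 0.18), Psmb6 (-0.72 ± 0.17) and Psmb7 (-0.70 ± 0.11) fell as well. Psmb7 reached 60.2, 74.3, 65.2 and 64.9 CPM in P14 saline and 66.9 and 73.6 CPM in P14 MIA, and fell at both steps. In the alpha ring, Psma5 fell by 0.85 ± 0.13 and Psma6 by 0.35 ± 0.12 on the log2 scale, the extremes of that ring. The calls of Psma6 (-0.12) and Psma8 (-0.27) were lost with totals alone.

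In the cap the lowest were the ATPase Psmc4 (-0.58 ± 0.15) and Psmd14 (-0.53 ± 0.10), at 59.7, 63.4, 60.1 and 59.8 CPM in P14 saline and 62.0 and 66.2 CPM in P14 MIA. The lid gene Psmd11 was near the threshold, with a fall of 0.28 ± 0.11 (adjusted p = 0.041 by edgeR). Its call held in 11 of 18 fits without a single library (-0.34 to -0.17), and was lost with the replicate block and with totals alone (-0.05). The receptor Psmd4 was at 156, 164 and 157 CPM in E13 saline, 172, 146 and 162 CPM in E15 saline and 175, 160, 171 and 170 CPM in P14 saline, and did not pass at either step (-0.08 ± 0.09 from E15 to P14). Adrm1 (-0.19 ± 0.19) and Psmc3 (-0.04 ± 0.09) did not pass either, and all 3 turned positive with totals alone as the scaling. Psmc1 was the single cap gene above 0 (0.22 ± 0.18, and 0.06 without P14 saline replicate 1), and its libraries were uneven within groups, at 141, 75.3, 73.9 and 76.1 CPM in P14 saline.

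Without both E15 replicate 1 libraries, 17 genes fell (12 core and 5 cap), with medians of -0.39 for the core and -0.12 for the cap. The share of all genes called is not given for this and the following alternatives. Leaving out single libraries gave 18 (without E15 saline replicate 1) to 27. Dividing cells were fewer at the later stages (34.2%, 11.9% and 3.28% of the cells kept as microglia on average, and 31.6% in E15 saline replicate 1). Without the dividing clusters 26 genes fell from E15 to P14 and 22 from E13 to E15. Cells in dividing clusters had a higher core level than the other cells of their library in 6 of 6 libraries at each stage, by 0.04 ± 0.03 (SD) on the log2 scale at E13, 0.23 ± 0.05 at E15 and 0.66 ± 0.21 at P14. For the cap the difference was 0.12, 0.27 and 0.30, also above 0 in 6 of 6 libraries at each stage. These clusters were cut from the same cells, so the values are a description. The dividing clusters were kept without a check for other cell types.

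After MIA the subunits of sorted microglia did not pass the test at any stage. At E13, 0 of 36 passed the adjusted threshold and 0 the unadjusted one, against 0% and 1.08% of all genes, with 33 of 36 genes above 0 and a median core change of 0.03. At E15 it was 0 and 0, against 0% and 0.362%, with 34 of 36 genes below 0 and medians of -0.14 for the core and -0.05 for the cap. In each of the 3 same-numbered E15 pairs the core, the cap and their ratio were lower after MIA, and with the replicate block 0 genes passed either threshold, with medians of -0.13 and -0.06. At P14 it was 0 adjusted and 1 unadjusted (Psma6, 0.19 ± 0.08), against 0% of all genes and 1.52% of all genes higher. At that stage 29 of 36 genes were above 0, all 15 core genes among them (core median 0.06), and both MIA libraries (2058 and 2037 CPM) lay above the 4 saline libraries (at most 2016 CPM) for the summed core. The sign was thus not the same at the 3 stages. DESeq2 gave 0 at both thresholds at each stage, again among the genes that its own filter left. Psmb5 changed by 0.04 ± 0.18, -0.11 ± 0.31 and 0.06 ± 0.09 at the 3 stages, and Psmd14 by 0.01 ± 0.12, -0.05 ± 0.19 and 0.10 ± 0.08. The SE was widest at E15, where replicate 1 stood apart in both treatments.

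Other genes of the pathway were read from lists of 36 genes, whose counts stand beside 21.5% of all genes lower and 25% higher from E13 to E15 and 29.5% lower and 29.9% higher from E15 to P14. From E13 to E15 all 5 assembly factors of the core fell, led by Psmg1 (-1.004 ± 0.17), with Pomp, which matures the beta ring, at -0.27 ± 0.10. So did 7 of 10 cap-associated genes, such as the deubiquitinases Uchl5 (-0.89 ± 0.11) and Usp14 (-0.63 ± 0.08), and 2 of 3 genes of the Vcp segregase. The lid subunit Sem1, which the symbol rule leaves out, fell as well (-0.52 ± 0.16). Among 5 regulators 1 fell, the alternative cap Psme3 (-0.94 ± 0.08), and among 5 ubiquitin genes 1 fell, Uba1. Both of these shares are near that of all genes. From E15 to P14, 3 of 5 assembly factors fell (Pomp -0.70 ± 0.11, Psmg4 -0.93 ± 0.10 and Psmg1 -0.54 ± 0.17), 4 of 10 cap-associated genes, 2 of 5 regulators (Psme2 and Psme3) and 1 of 3 segregase genes (Ufd1) did, and Sem1 fell by 1.06 ± 0.17 on the log2 scale. The shares of cap-associated, regulator and segregase genes that fell from E15 to P14 are near that of all genes. The cap-associated ligase Ube3c rose (0.33 ± 0.12). Of the factors that act on subunit transcription, 3 of 4 rose (Nfe2l1 0.46 ± 0.16, Nfe2l2 0.41 ± 0.10 and Ngly1 0.21 ± 0.08, of which Ngly1 alone had risen from E13 to E15, by 0.25 ± 0.08). Among the ubiquitin genes Rps27a, a ribosomal fusion gene, fell (-1.56 ± 0.11). In nuclei 0 of the pathway genes passed in any comparison (Pomp -0.69 ± 0.23 in wild type after MIA).

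The immunoproteasome subunits, which replace the 3 catalytic ones in immune cells, set the assays apart. Psmb8 was at 148 to 246 CPM in sorted microglia and at most 0.33 CPM in nuclei, Psmb9 at 38.1 to 82.8 CPM against at most 0.27 CPM, and Psmb10 at 78.5 to 134 CPM against 6.23 to 9.37 CPM. In sorted cells 0 of the 3 passed between the stages, the change of Psmb8 being -0.05 ± 0.13 from E13 to E15 and -0.20 ± 0.14 from E15 to P14, while their constitutive counterparts Psmb5, Psmb6 and Psmb7 fell in the second step.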

How the data were processed

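The deposited values are raw UMI counts of each gene in each cell barcode, for which the authors ran Cell Ranger on mm10 and applied no scaling. The submitters' notes and the file headers name version 3.1.0 for 22 libraries, and the headers of the 4 replicate 2 nuclei libraries name 6.0.1, with a longer gene list. The nuclei's replicate number therefore also stands for software. Genes were joined by Ensembl identifier (30406 shared).

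Barcodes were kept from 500 UMIs and 200 genes upward in nuclei, and in sorted cells from 500 genes upward where mitochondrial UMIs did not exceed 20%. Doublets were removed by scrublet score at 0.8% per 1000 cells. Automatic calls were 0 to 79 in the sorted libraries and 6 to 216 in the nuclei libraries. Cells were clustered with scanpy 1.11.5 and leidenalg 0.10.2, and clusters named as other cell types were removed from the sorted libraries. Clusters with at least 7 dividing markers up were kept as dividing without a check for other cell types (7019 embryonic and 929 P14 cells).

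Counts were summed per library and tested with edgeR 4.0.16 in R 4.3.3 (quasi-likelihood test, TMM, filterByExpr), with Benjamini-Hochberg adjustment over all genes tested and a threshold of 0.05, after the procedure was tested on simulated data. SE is the log2 change divided by the root of F. All nuclei groups shared one fit, as did all stages of microglia, and MIA was tested within each stage. CPM is UMIs over the library's summed UMIs. Genes outside the stage fits were the 1 or 2 members that failed the filter.

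Members, gene lists and tests were chosen with earlier results of these data known. Genes were named by rule: the 3 catalytic subunits, Psmd4, Adrm1, Psmd14 and Psmd11 everywhere, the 2 lowest and 2 highest core and cap genes per comparison, and up to 10 called genes of lowest p. Pathway lists covered assembly, cap-associated factors, regulators, the segregase, transcription control, ubiquitin and the immunoproteasome. One result of these lists is not reported here.

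Same-numbered nuclei libraries deviated together (r = 0.495 to 0.68 over 14379 genes), as did E15 microglia (r = 0.165 to 0.555), so block results are given where they change a call. Alternatives were DESeq2 1.42.0, RLE size factors, no filter on low counts, no doublet removal, covariates, the replicate block and leaving out libraries. Counts from DESeq2, adjusted or not, cover only genes that its own filter left with an adjusted p, and stand without its share of all genes. Added after seeing the data were library totals alone, named clusters alone, shared barcodes once, the block without the libraries that went against their labels, and leaving out the E15 replicate 1 or the shallow E13 MIA libraries. Every pair of libraries of a group differed beyond sampling noise by a chi-square test over genes. The authors' annotated cells were not used here.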

Additional observations from a re-analysis of the deposited data

Results flagged for a closer look

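Among the 4 P14 saline libraries of sorted microglia, 5 subunits had 1 library whose gap to its nearest neighbour took most of the group's range, which chance alone gives in about 1 of 20 groups, and 40 groups were tested. The ATPase Psmc1 stood out most, at 140.974 CPM in replicate 1 against 73.9 to 76.1 CPM in the other 3 libraries. It was also at 142 CPM in E13 saline replicate 1 and 146 CPM in E13 MIA replicate 1, against 90.9 to 112 CPM in the other E13 libraries. In the same P14 library the ATPase Psmc3 was at 227.825 CPM against 188 to 192 CPM in the others. RNAs retained in the nucleus made up 3.70% of UMIs in that library against 3.01% to 3.04% in the other P14 saline libraries, and their part in both values was not tested. Their share was 1.08% in E13 saline replicate 1 and 0.815% in E13 MIA replicate 1, against 0.646% to 0.827% in the other E13 libraries. These E13 libraries shared 67 cell barcodes with each other, and 66 (saline) and 107 (MIA) with P14 saline replicate 1. P14 MIA replicate 1 shared 75, 133 and 114 with E13 saline, E13 MIA and P14 saline replicate 1. Its Psmc1 level was not among the high ones, and the 6 P14 libraries had a mean of 90.8 CPM and a median of 80.9 CPM. The part of shared barcodes was not tested.

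Psmb11 was at 0.097695 CPM in P14 saline replicate 1 and listed at 0 in the other 3 libraries, where a count of 0 cannot be told from this level. Psmd14 was at 63.441 CPM in replicate 2 against 59.7 to 60.1 CPM, and Psmb1 at 191.853 CPM in the female library of replicate 3 against 189 CPM in the other 3. Both gaps were small against the differences between the stages.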

How the results depend on the processing

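Of the values that answer a comparison, 353 stayed the same under the alternatives tried, where a count of calls in either direction within 1.5 times its first value is taken as the same, 7 counts rose beyond that and 1 fell beyond it. Smaller gains and losses of calls are among the 353. Of the other values followed, 1724 stayed the same, 54 moved, 27 turned in sign, 26 were weaker and 16 stronger. Lower genes from E13 to E15 numbered 10 with saline libraries alone and 16 to 29 when single libraries were left out, and from E15 to P14 18 to 27, against 16 lower and 2 higher with totals alone. In wild-type nuclei after MIA 1 gene (Psma6) was called without a filter on low counts. By cell type, MIA in wild type gave 1 call with DESeq2, 4 without a filter and 24 with the replicate block, and Csf1r-null against wild type after saline gave 1 (DESeq2), 1 (no filter) and 11 (replicate block). Without the libraries that went against their labels, wild-type MIA and Csf1r-null saline hold a single library each, so that fit cannot decide these calls. The cause was not tested in any of these. The block ended the call of Psmd11 from E15 to P14 and changed no other adjusted call of a named gene in whole libraries. Across stages it joins same-numbered libraries whose deviations had r of -0.389 to 0.382, so that lost call says nothing of a pairing.

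Signs of named genes are given here for MIA in wild-type nuclei, the saline comparison and both stage steps, not for the other comparisons. Among these the sign turned in Psma3, Psmd11, Adrm1, Psma8, Psmd4 and Psmc3. None of them passed the test where it turned except Psmc3 with library totals alone. When single libraries were left out, the wild-type change after MIA ran from -0.300 to 0.00815 for Psma3 and from -0.155 to 0.0183 for Psmd11. The Csf1r-null change after saline ran from -0.247 to 0.0625 for Psma3 and from -0.376 to 0.00593 for Psmd11. Adrm1 from E13 to E15 ran from -0.0943 to 0.173, and from E15 to P14 Psmc3 ran from -0.0885 to 0.0256 and Psmd4 from -0.121 to 0.0178. Adrm1 from E13 to E15 was -0.00228 with library totals alone, -0.000966 with all cells, -0.165 without the shallow E13 MIA libraries and -0.196 without the E15 replicate 1 libraries. With saline libraries alone Psma8 was 0.0340 and Psmd4 0.0254. From E15 to P14, with totals alone, Adrm1 was 0.0549, Psmc3 0.186 and Psmd4 0.151, and without the E15 replicate 1 libraries they were 0.0897, 0.0811 and 0.0520. With totals alone 5 other members also turned, Psmc2 to 0.05, Psmc6 to 0.13, Psmd5 to 0.05, Psmd10 to 0.08 and Psmd12 to 0.09, none of which passed. Psmc3 was 0.00377 without the dividing clusters. Psmd11 in Csf1r-null nuclei after saline was 0.0135 without the libraries that went against their labels. The cause was not tested.

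Psma8 in nuclei and Psmb11 in both assays had too few counts for a test, and the reason was not tested.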
